A study of Mus musculus with 11 samples.

Results

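The 79 genes described here encode the proteins of the cytosolic ribosome in mouse embryonic stem cells (ESCs). They were chosen by name: rows of the coding RefSeq class whose identifier maps to a symbol that starts with Rps or Rpl and a digit, together with Rplp0, Rplp1, Rplp2 and Rpsa. Of them, 32 belong to the small ribosomal subunit and 47 to the large one. All 79 occur in both deposited tables, of 48942 features for the Dicer comparison and 39889 for the cMyc comparison. Left out were 17 symbols, among them the Rps6k kinases and the paralogues Rpl10l, Rpl22l1, Rpl39l, Rpl7l1, Rpl3l and Rps27l. By its name the rule also takes Rps23rg1, a retrogene derived from Rps23, and Rpl32l. The study asked how mRNAs and long noncoding RNAs differ between Dicer-null and wild-type ESCs. Poly(A) RNA from 129S4/SvJae ESCs kept on gelatin without feeder cells was sequenced from 3 Dicer-null lines, numbered 1, 3 and 4 (Dcr KO), and from wild-type cells in 2 libraries (Dcr WT libraries 1 and 2). A cMyc knockout library (cMyc KO) and a library from cells with floxed, undeleted cMyc alleles (cMyc flox) form the second pair, with 1 library each. Nothing in the labels says that the Dcr WT libraries came from separate cultures, so p-values measure the spread between these libraries, which may in part be technical.

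A ribosome holds 1 copy of nearly every one of these proteins, built around the ribosomal RNAs, and cells normally make them in matched amounts. In vertebrates their mRNAs begin with a C followed by a run of pyrimidines, the 5′ terminal oligopyrimidine (TOP) tract, through which mTOR signalling sets their translation. Many of the genes carry small nucleolar RNAs (snoRNAs) in their introns, and Myc is known to raise the transcription of ribosomal protein genes in several cell types. Most also have many processed pseudogenes, copies of the spliced mRNA elsewhere in the genome. The sources used here do not say how reads that match such copies were counted, so a value can hold reads from a copy or lack reads given to one.

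The pyrimidine tract was looked for at the starts of the genes, because it is the feature that the family is known for and the rule did not use it. RefSeq promoter windows on build GRCm38.p6, of 250 bases before to 50 after an annotated start, were found for 60 of the 79 genes, 70 windows in all. An uninterrupted run of at least 8 C or T bases on the coding strand, within 50 bases of the start on either side, was present in 81.4% of these windows and in 35.7% of all 32851 windows. The longest run had a median of 10 bases in the ribosomal protein windows and 7 in all windows. The 30-base stretches below hold the longest run, in capitals, of genes on which the results turn. Rpl11, Rpl35, Rpl35a, Rpl38, Rplp2, Rps16 and Rps18 had lower read counts in Dcr KO, Rps23 had higher ones, and Rpl15 and Rps6 passed the test in neither direction.
Rpl11, chr4:136053357-136053386, minus strand: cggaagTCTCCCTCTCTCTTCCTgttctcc
Rpl35, chr2:39005115-39005144, minus strand: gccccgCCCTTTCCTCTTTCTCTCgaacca
Rpl35a, chr16:33056469-33056498, plus strand: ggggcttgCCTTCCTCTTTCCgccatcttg
Rpl38, chr11:114668568-114668597, plus strand: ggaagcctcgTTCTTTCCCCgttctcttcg
Rplp2, chr7:141447636-141447665, plus strand: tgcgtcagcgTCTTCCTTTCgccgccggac
Rps16, chr7:28350632-28350661, plus strand: aattcacacgTCCCCTCTCaggcttcgacg
Rps18, chr17:33955647-33955676, minus strand: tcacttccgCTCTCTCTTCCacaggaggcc
Rps23, chr13:90923142-90923171, plus strand: tgggtccttcctgcaCCTCCTCTCTCTTTC
Rpl15, chr14:18270967-18270996, minus strand: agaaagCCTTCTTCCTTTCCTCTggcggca
Rps6, chr4:86857349-86857378, minus strand: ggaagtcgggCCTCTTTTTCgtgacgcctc
Runs of this kind stood at genes that were lower, at Rps23, which was higher, and at genes that were not called. Such a run need not be the TOP tract of the mRNA. The 9-base run of Rps16 began 47 bases before the annotated start and lay wholly before it. That of Rps23 began at base 36 after the start and reached the end of the window. Of the 51 genes with such a run, 29 were lower and 1 was higher in Dcr KO, with a median log2 fold change of −0.83. Of the 9 genes with windows but no such run, 5 were lower and 1 was higher, with a median of −0.76.

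Values below are the authors' normalised read counts, that is reads divided by 1 factor per library. They are not per length, so they compare 1 gene between libraries and not the abundance of different genes. The Dcr table and the cMyc table were normalised separately, and no value is compared across them. Depth was 247574902, 278006158 and 251808298 reads in Dcr KO lines 1, 3 and 4, and 101815723 and 206721717 in Dcr WT libraries 1 and 2. The cMyc KO library held 31633011 reads and the cMyc flox library 24660365. The lowest value of any of the 79 genes in any Dcr library was 141, and the lowest number of reads in a cMyc library was 274, so no gene was lost to the filter on low values. As to the targeted genes, Myc stood at 10.9 in cMyc KO against 470 in cMyc flox. In the Dcr libraries Myc was at 1253, 1054 and 443 in Dcr KO lines 1, 3 and 4 against 10984 and 7478 in Dcr WT libraries 1 and 2. Dicer1 stood at 8553, 9793 and 7743 in the Dcr KO lines against 20131 and 18792 in Dcr WT (log2 fold change −1.17, limma adjusted p = 0.000556), and the sources used here do not name the deleted part of the gene.

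Most ribosomal protein genes had fewer reads in the Dicer-null lines. With limma on log2(value + 1), 45 of the 79 (57.0%) were lower and 4 (5.06%) were higher in Dcr KO at a Benjamini-Hochberg adjusted p under 0.05, and 30 did not pass. Over all 42358 features tested, 14.8% were lower and 16.9% higher, and over the 16322 coding RefSeq genes tested 22.9% were lower and 20.9% higher. The median log2 fold change of the 79 genes was −0.80 (interquartile range −1.18 to −0.25), against 0.08 for all features and −0.06 for coding genes. In 49 of the 79 (62.0%) all 3 Dcr KO lines lay below both Dcr WT libraries, and in 6 (7.59%) all lay above. The same happened in 27.4% and 30.0% of all features and in 35.5% and 31.3% of coding genes. In bulk RNA, fewer cells with a given transcript and less of it per cell cannot be told apart.

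**Figure D1:**
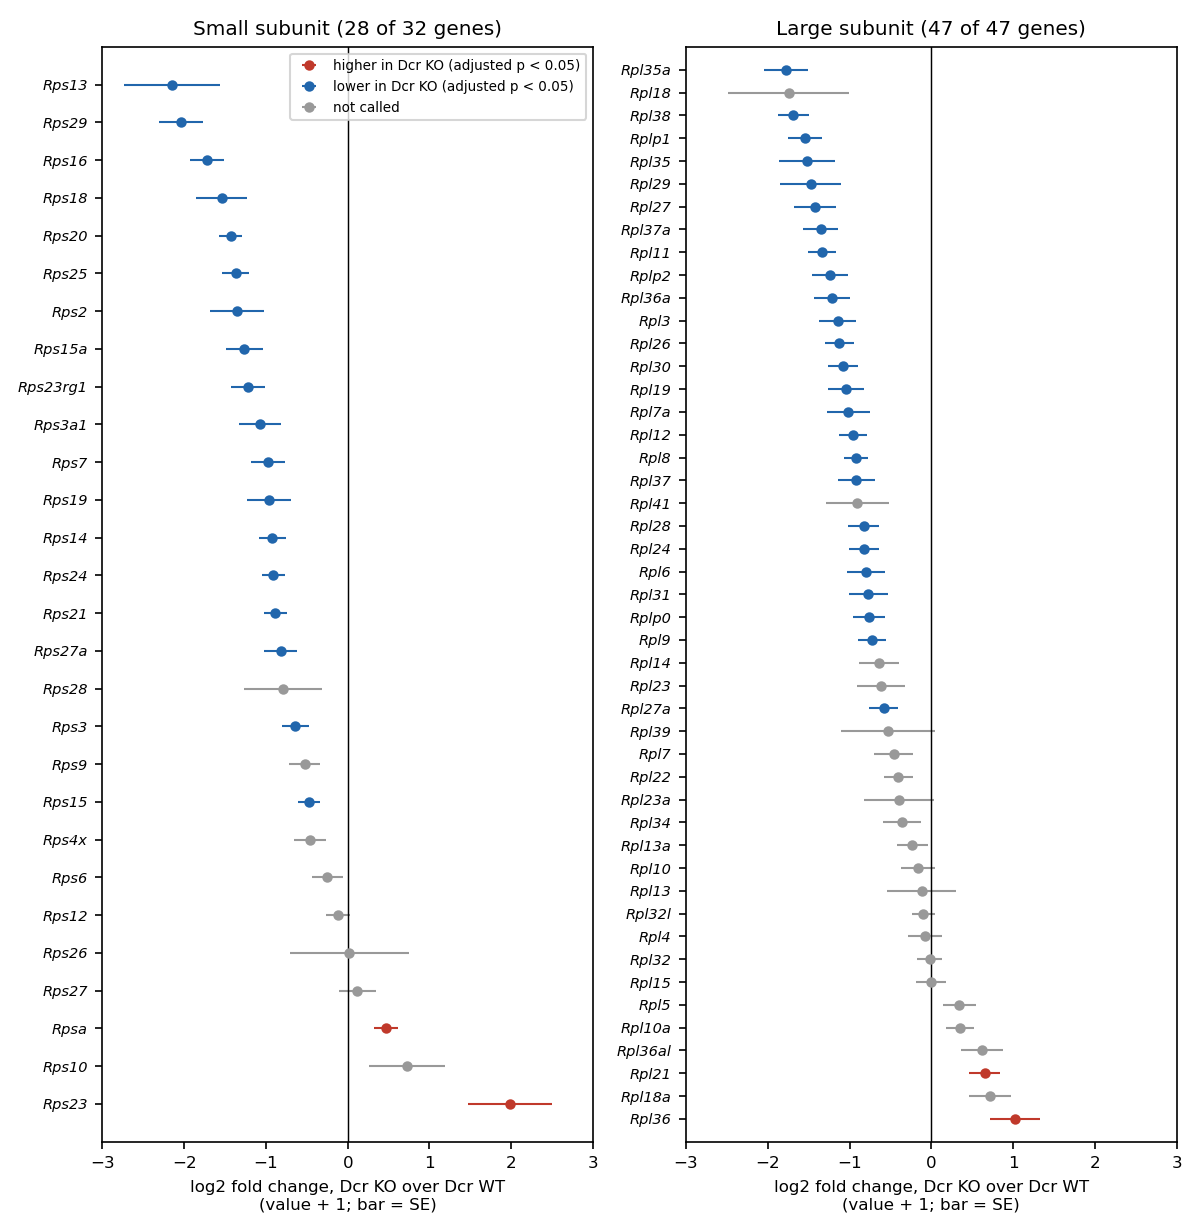
Log2 fold change of 75 of the 79 ribosomal protein genes, Dcr KO (3 lines) over Dcr WT (2 libraries), on the log2(value + 1) scale, small subunit on the left and large subunit on the right; bars are the standard error of the limma fit and colours the call. Points run from −2.15 (Rps13) to 1.98 (Rps23), with 43 of the plotted genes called lower and 4 called higher.

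Genes of both subunits were among those lower in Dcr KO. Among small subunit genes 20 of 32 were lower and 2 higher, with a median log2 fold change of −0.83, and among large subunit genes 25 of 47 were lower and 2 higher, with a median of −0.77; the subunits were not tested against each other. Sorted by mean level over the 5 libraries, the lower 39 genes held 28 lower calls (median −0.96) and the upper 40 held 17 (median −0.51). Ribosomal protein genes that carry an annotated snoRNA, 29 in all, held 15 lower and 2 higher calls (median −0.62), and the other 50 held 30 and 2 (median −0.82).

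Summed over the 79 genes, the reads made up 1.30, 1.16 and 1.10% of all reads on coding features in Dcr KO lines 1, 3 and 4, against 1.91 and 1.87% in Dcr WT libraries 1 and 2. The means were 1.19 ± 0.105% in Dcr KO (SD, n = 3) and 1.89 ± 0.030% in Dcr WT (SD, n = 2). The groups did not overlap. A two-sided exact permutation test over the 5 libraries, with 10 arrangements, gave p = 0.200. That is the smallest p this form of the test can give with 3 and 2 libraries, so it cannot pass 0.05. The small subunit took 0.559, 0.506 and 0.488% in the Dcr KO lines against 0.778 and 0.868% in Dcr WT, and the large subunit 0.743, 0.650 and 0.611% against 1.13 and 1.00%.

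**Figure D2:**
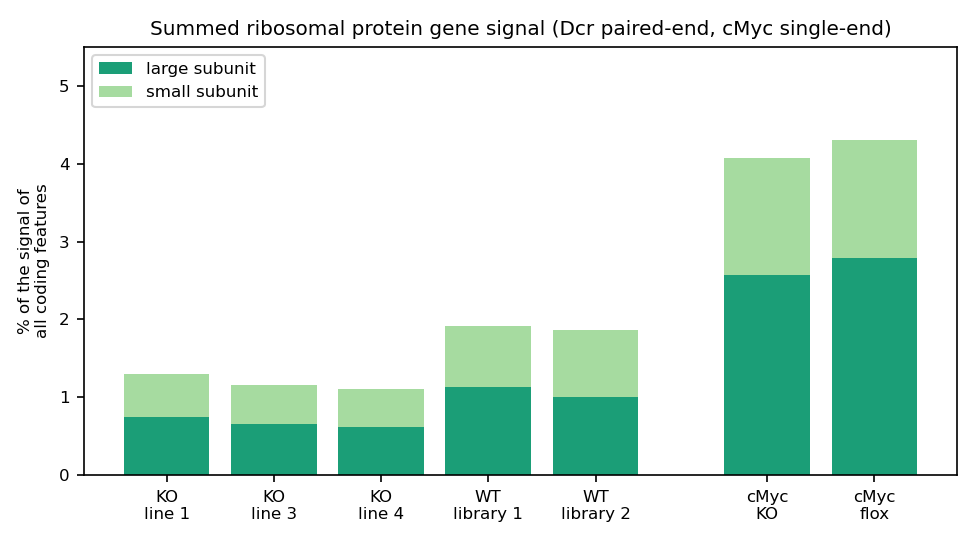
Reads on the 79 ribosomal protein genes as a percentage of reads on all coding features, stacked by subunit, 1 bar per library. The 3 Dcr KO bars (1.10 to 1.30%) lie below both Dcr WT bars (1.87 and 1.91%); the single cMyc KO bar stands at 4.07% and the cMyc flox bar at 4.30%, from another table and another library type.

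Genes with the largest decreases included Rps29, a small zinc-binding protein of the head of the small subunit. It had 273, 302 and 279 normalised reads in Dcr KO lines 1, 3 and 4, against 869 and 1588 in Dcr WT libraries 1 and 2 (log2 fold change −2.04 ± 0.27 SE, limma adjusted p = 0.000625). The 3 Dcr KO lines were close together and far below both Dcr WT libraries. Rpl35a, a large subunit protein whose gene is mutated in some human patients with the red-cell disorder Diamond-Blackfan anaemia, had 217, 141 and 145 in the Dcr KO lines against 632 and 508 in Dcr WT (−1.78 ± 0.27, limma adjusted p = 0.00145). Rps16, whose tail reaches towards the site of the peptidyl-tRNA, had 1187, 1182 and 972 against 4432 and 3013 (−1.72 ± 0.20, limma adjusted p = 0.000383). In both genes the Dcr KO lines stayed well under the lower Dcr WT library.

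Rpl38, which mouse genetics has tied to the translation of Hox mRNAs, stood at 2324, 1836 and 1527 in Dcr KO lines 1, 3 and 4, against 6281 and 5749 in Dcr WT libraries 1 and 2, a log2 fold change of −1.69 ± 0.19 (limma adjusted p = 0.000321). The Dcr WT libraries agreed closely here, and all 3 Dcr KO lines were lower. Rps18, in the head of the small subunit, had 5529, 4541 and 2970 against 17402 and 8645 (−1.54 ± 0.32). For Rpl35, which sits at the exit of the tunnel through which the new protein leaves, the values were 500, 374 and 237 against 1338 and 771 (−1.52 ± 0.34). Both passed the test without overlap (limma adjusted p = 0.00593 and 0.00891), although their Dcr WT libraries were further apart. The smallest adjusted p of the family, 0.000151 by limma, was that of Rps20, with 32728, 32258 and 29876 in the Dcr KO lines against 93303 and 77545 in Dcr WT (−1.43 ± 0.14).

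Rps13, a small subunit protein whose gene carries the snoRNA Snord14a, had the lowest log2 fold change, −2.15 ± 0.59 (limma adjusted p = 0.0217). Its normalised reads were 216, 187 and 142 in the Dcr KO lines, against 1915 and 330 in Dcr WT libraries 1 and 2. The size rested on Dcr WT library 1: against library 2 alone the log2 fold change was −0.88, and against library 1 alone it was −3.41. Each fit with 1 Dcr KO line left out lost the call (limma adjusted p from 0.0670 to 0.108).

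The P stalk, formed by Rplp0, Rplp1 and Rplp2, recruits the elongation factors to the large subunit, and all 3 of its genes were lower in Dcr KO. Rplp1 had 30368, 26057 and 25604 in Dcr KO lines 1, 3 and 4 against 103293 and 61039 in Dcr WT libraries 1 and 2 (−1.54 ± 0.21, limma adjusted p = 0.000798). Rplp2 had 2907, 1968 and 1744 against 4750 and 5462 (−1.24 ± 0.22, limma adjusted p = 0.00298), and Rplp0, the anchor of the stalk, 191667, 138652 and 117995 against 252431 and 243361 (−0.76 ± 0.20, limma adjusted p = 0.0180). None of the 3 overlapped between genotypes. The call of Rplp0 was lost without Dcr KO line 3 (limma adjusted p = 0.0929) or line 4 (0.0684).

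Of the pair that joins 5S ribosomal RNA and, when free, binds the p53 regulator Mdm2, Rpl11 was lower and Rpl5 was not called. Rpl11 had 1093, 1036 and 955 in the Dcr KO lines against 2853 and 2372 in Dcr WT (−1.34 ± 0.17, limma adjusted p = 0.000561). Rpl5 had 6599, 5960 and 5582 against 3768 and 6009 (0.34 ± 0.20, limma adjusted p = 0.222), with overlap. It was at 0.0058 over Dcr WT library 2 alone, and was called higher over library 1 alone (0.68, limma adjusted p = 0.00791). Near the peptidyl transferase centre, Rpl3, which reaches into it, stood at 16184, 15059 and 12366 against 41921 and 24276 (−1.14 ± 0.22, limma adjusted p = 0.00496). Rpl10, a protein added late in assembly, stood at 5627, 4594 and 3413 against 4852 and 5127 (−0.16 ± 0.21, limma adjusted p = 0.572), and its groups overlapped.

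Of the 7 measured proteins at the tunnel and its exit, Rpl19, Rpl26, Rpl31 and Rpl35 were lower (list median −0.77), and Rpl4, Rpl23a and Rpl39 did not pass. The lower call of Rpl31 (−0.77 ± 0.24, limma adjusted p = 0.0345) did not hold in the 4 fits that left out Dcr KO line 1, 3 or 4 or else Dcr WT library 1 (limma adjusted p from 0.0716 to 0.132). Rpl4, which lines the tunnel, had 411408, 330328 and 267310 in the Dcr KO lines against 398343 and 306720 in Dcr WT (−0.08 ± 0.20, limma adjusted p = 0.796). Its groups overlapped over most of their range. At the mRNA entry, Rps3 fell to 208090, 178580 and 149924 against 274651 and 277558 (−0.64 ± 0.16, limma adjusted p = 0.0169), a call lost without Dcr KO line 3 (limma adjusted p = 0.0879) or line 4 (0.0557).

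Rps2, also at the mRNA entry, had 14730, 11885 and 11026 in the Dcr KO lines against 19719 and 51563 in Dcr WT libraries 1 and 2 (−1.36 ± 0.33, limma adjusted p = 0.0132). Over Dcr WT library 2 alone it was −2.05 and over library 1 alone −0.66, and each fit with 1 Dcr KO line left out lost the call (limma adjusted p from 0.0562 to 0.0788). Rps9, the remaining protein there, had 59748, 51695 and 54121 in the Dcr KO lines against 63641 and 98837 in Dcr WT, without overlap, and was not called by limma (−0.53 ± 0.19, limma adjusted p = 0.0603). It was called lower by edgeR (adjusted p = 0.0381), by DESeq2 (0.0386), and by limma with total count scaling (0.0434) or scaling to coding reads of other genes (0.0343). Over Dcr WT library 2 alone Rps9 was −0.84 (limma adjusted p = 0.000583), and over library 1 alone −0.21. Of 9 genes whose human counterparts are mutated in Diamond-Blackfan anaemia, 6 were lower in limma (list median −0.91), among them Rps7, Rps19 and Rps24. Rps19, the gene most often affected in that disorder, had 3965, 3247 and 2583 against 8484 and 4626 (−0.96 ± 0.26, limma adjusted p = 0.0220). That call failed with either Dcr KO line 1, 3 or 4 or the first Dcr WT library left out (limma adjusted p from 0.0529 to 0.102), and over Dcr WT library 2 alone the value was −0.52.

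Only 4 of the 79 genes were higher by this test. Rps23, a protein of the decoding centre, had 15283, 8491 and 6950 in Dcr KO lines 1, 3 and 4, against 1203 and 4959 in Dcr WT libraries 1 and 2 (1.98 ± 0.51, limma adjusted p = 0.0172). Its groups did not overlap, but it was 4.12-fold apart between the Dcr WT libraries, and its value was 0.96 over Dcr WT library 2 alone and 3.00 over library 1 alone. DESeq2 on the recovered reads did not call it (1.73, DESeq2 adjusted p = 0.0832), whereas edgeR on the same reads did (edgeR adjusted p = 0.0153). The retrogene Rps23rg1 was lower, at 350, 344 and 420 in the Dcr KO lines against 801 and 929 in Dcr WT (−1.22 ± 0.21, limma adjusted p = 0.00236). The sources used here do not say how reads shared by Rps23 and its copies were divided.

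Rpl36 had 2834, 3324 and 2464 in the Dcr KO lines against 925 and 2132 in Dcr WT libraries 1 and 2 (1.02 ± 0.31, limma adjusted p = 0.0315). Over Dcr WT library 2 alone the value was 0.42, and over library 1 alone 1.62. The call was also lost with total count scaling (0.94, limma adjusted p = 0.0594) and with scaling to coding reads of other genes (0.91, limma adjusted p = 0.0656). Rpl21 had 16934, 15713 and 11016 against 8799 and 9422 (0.65 ± 0.19, limma adjusted p = 0.0284), and Rpsa, the small subunit protein also known as the laminin receptor, 100937, 94083 and 81913 against 61885 and 71037 (0.47 ± 0.15, limma adjusted p = 0.0374). In each of these genes all Dcr KO lines lay above both Dcr WT libraries. None of the 4 calls survived every fit with 1 library left out: without Dcr KO line 1 the adjusted p was 0.107 for Rps23, 0.122 for Rpl36, 0.119 for Rpl21 and 0.128 for Rpsa, and all 4 were also lost without line 3 (0.0513 to 0.154). Without line 4, Rps23 (0.0541) and Rpl36 (0.0817) were lost, and without Dcr WT library 1, Rpl36 (0.123) and Rpsa (0.0931).

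Of the near-identical pair Rpl36a and Rpl36al, Rpl36a was called and Rpl36al was not. Rpl36a, on the X chromosome, was lower, with 367, 407 and 333 in the Dcr KO lines against 732 and 1003 in Dcr WT (−1.22 ± 0.22, limma adjusted p = 0.00338). Rpl36al had 19480, 18638 and 17238 against 8397 and 17112 (0.62 ± 0.25, limma adjusted p = 0.0897) and was not called, although no Dcr KO line lay below a Dcr WT library. For Rpl36al the value was 0.11 over Dcr WT library 2 alone (limma adjusted p = 0.645) and 1.13 over library 1 alone (limma adjusted p = 8.18e-05). A test of the difference between the copies was not run. The stretches near their starts, with the longest pyrimidine run in capitals, show how the flanks of the copies differ. These runs began at bases 28 (Rpl36a) and 29 (Rpl36al) after the annotated start, so they need not be the TOP tract.
Rpl36a, chrX:134585673-134585702, plus strand: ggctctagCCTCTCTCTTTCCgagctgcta
Rpl36al, chr12:69184020-69184049, minus strand: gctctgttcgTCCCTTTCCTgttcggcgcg
Other genes fixed for description were the S6 kinase substrate Rps6 and the X-linked Rps4x. Rps6 had 15721, 13769 and 11818 in the Dcr KO lines against 19389 and 13637 in Dcr WT (−0.25 ± 0.19, limma adjusted p = 0.335), and Rps4x 50493, 50113 and 46870 against 52619 and 86826 (−0.46 ± 0.20, limma adjusted p = 0.106). Neither passed with both Dcr WT libraries. Over one of them alone each did: Rps6 was −0.50 over library 1 (limma adjusted p = 0.0412) against 0.0042 over library 2, and Rps4x was −0.82 over library 2 (limma adjusted p = 0.000591) against −0.099 over library 1. Rps27a, made as a fusion with ubiquitin, was lower, with 2438, 2265 and 1781 against 4416 and 3235 (−0.82 ± 0.20, limma adjusted p = 0.0132), and lost its call without Dcr KO line 4 (limma adjusted p = 0.0562).

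By normalised reads, which favour long transcripts, Rpl4, Rpl8 and Rps3 were among the genes with the highest means in Dcr WT, and Rpl35a, Rps28, Rps27 and Rps23rg1 had the lowest. Rpl8, a protein of the large subunit core, had 266105, 234571 and 216292 in the Dcr KO lines against 455362 and 446505 in Dcr WT (−0.92 ± 0.15, limma adjusted p = 0.00179). The Dcr KO lines stood clearly apart from the Dcr WT libraries, which nearly coincided. Rps27 had 658, 715 and 595 in the Dcr KO lines against 493 and 739 in Dcr WT (0.12 ± 0.23, limma adjusted p = 0.723), and its groups overlapped.

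The Dicer-null lines were not alike. Line 1 was the highest and line 4 the lowest of the 3 in 57 of the 79 genes (72.2%), an order shared by 34.2% of coding genes and by 41.1% of coding genes with a Dcr WT mean at least that of the lowest ribosomal protein gene. Against the mean of the Dcr WT libraries, the median log2 difference of the 79 genes was −0.60 in line 1, −0.77 in line 3 and −1.04 in line 4, with 62, 65 and 70 genes below 0. For coding genes the medians were 0.00, −0.03 and −0.12. Without Dcr KO line 4, the lower calls numbered 29 of 79 and the median log2 fold change was −0.64. Without line 3, the lower calls were 31. Lower calls over all features fell too, from 6273 of 42358 to 4275 of 41884 without line 4 and 3847 of 41900 without line 3. At an unadjusted limma p under 0.05, 45 of the 79 were lower in each of these fits. The drop in calls is thus not particular to the family.

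**Figure D3:**
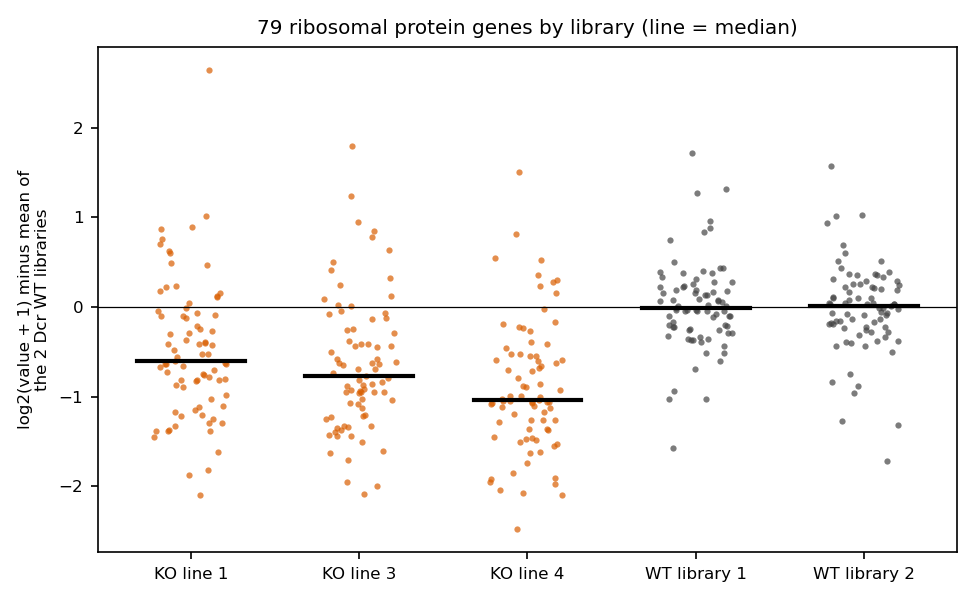
Each ribosomal protein gene in each Dcr library, as log2(value + 1) minus the mean of the Dcr WT libraries for that gene; black bars are medians over the 79 genes. The medians step down over Dcr KO lines 1, 3 and 4 (−0.60, −0.77 and −1.04), and points of the Dcr WT libraries spread on both sides of 0.

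The wild-type libraries disagreed about ribosomal protein genes more often than about coding genes, and less often than about all features. In 16 of the 79 (20.3%) they differed by more than 2-fold, 8 of them higher in library 1. The share was 11.3% of coding RefSeq genes tested and 27.4% of all features tested. It was 2.64% of coding genes with a Dcr WT mean at least that of the lowest ribosomal protein gene. That limit is a floor and does not match the genes by level. These shares describe a pair of libraries. Library 1 had the smaller depth and its column carries another suffix than the other Dcr columns, which no label explains. The widest gap was that of Rpl18, which had 5692, 7067 and 5312 in the Dcr KO lines against 65862 and 6085 in Dcr WT libraries 1 and 2. For Rps26, at the mRNA exit and a Diamond-Blackfan gene in humans, the values were 45310, 32104 and 18329 against 9890 and 87564. The 3 Dcr KO lines lay between the Dcr WT libraries in Rps26, and next to library 2 in Rpl18.

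Set against Dcr WT library 1 alone or library 2 alone, 12 of the 79 genes had a different sign, and 3 were called in opposite directions by limma. These 3 were Rps26 (log2 fold change 1.59 over library 1 and −1.55 over library 2), Rpl39, which lines the exit tunnel (−1.85 and 0.79), and Rpl13 (0.82 and −1.06). They were picked out after their values were seen. Such fits assume that the lone library varies like the others. In the same fits, 40 genes were lower and 2 were higher, Rpl21 and Rps23, whichever Dcr WT library was used. Among the 63 genes within 2-fold between the Dcr WT libraries, 41 were lower and 2 higher in the full comparison (median −0.82). Among the 16 beyond it 4 were lower and 2 higher. The gap between the Dcr WT libraries is part of the error in that test, so a wide gap itself makes a call less likely. These counts are therefore no separate check of the calls.

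**Figure D4:**
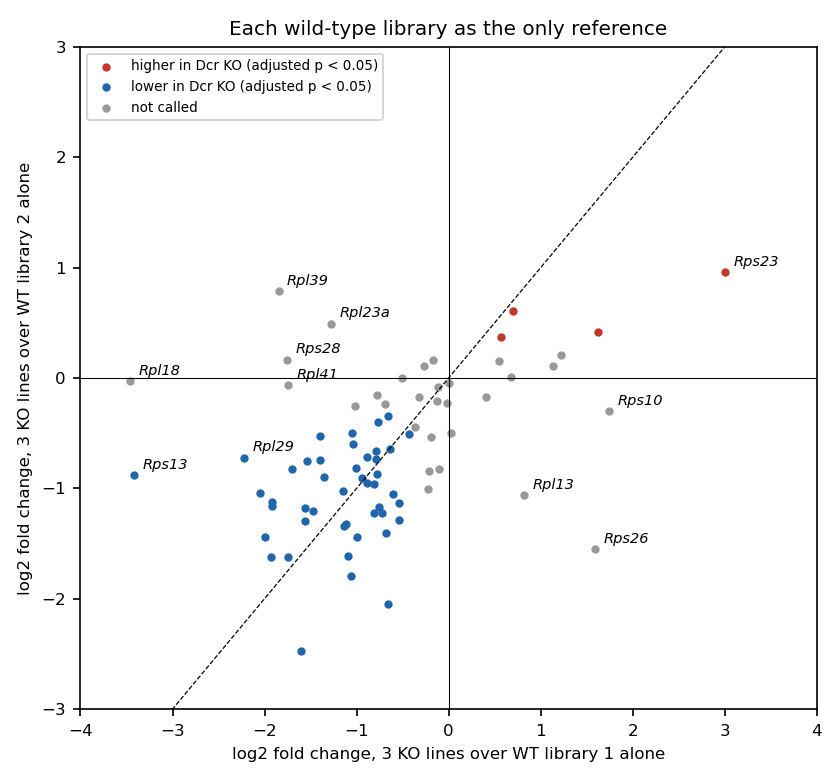
Log2 fold change of the 79 genes in Dcr KO over Dcr WT library 1 alone (horizontal) and over library 2 alone (vertical); the dashed line marks equal values and colours give the call with both libraries. Most points lie in the lower left, and Rps26, Rpl13, Rps10, Rpl39 and Rpl23a lie in quadrants where the signs differ.

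Leaving out each library in turn, 29 of the 45 lower genes were called in all 5 fits and 16 were lost in at least 1. Besides genes so described, Rps3a1, Rps15, Rpl6, Rpl7a, Rpl27a, Rpl29 and Rpl37 lost the call without at least 1 Dcr KO line. Of these, Rpl29 moved most, at −0.72 without Dcr WT library 1 and −2.22 without library 2, against −1.47 with both. The 29 included Rps29, Rpl35a, Rps16, Rpl38, Rps18, Rplp1, Rplp2, Rpl35, Rps20, Rpl11, Rpl3, Rpl8, Rpl36a, Rps14, Rps24 and Rps7. The cell state markers that could move with the family were read alongside. ESC markers were close between genotypes, with 1 of 8 called, Tdgf1, which was lower, and sums of 1088824, 959932 and 927216 in Dcr KO lines 1, 3 and 4 against 1051944 and 922878 in Dcr WT libraries 1 and 2. Of 8 fibroblast markers, 6 were lower (Col1a1, Col1a2, Col3a1, Thy1, Acta2 and Tagln), 1 was higher (Dcn) and 1, Lum, was not called. Their sums were 6004, 3486 and 2111 in the Dcr KO lines against 29357 and 41696 in Dcr WT. Lum was at 0 in Dcr KO lines 1 and 4, and the other markers were above 0 in all 5 libraries. Some of these rested on few reads: Col1a2 was at 2.66, 1.53 and 0.765 in Dcr KO lines 1, 3 and 4. Col3a1 was at 0.887, 5.35 and 3.06 in the same lines. Dcn, the higher marker, was at 106, 45.8 and 23.0 against 8.05 and 8.22 in Dcr WT libraries 1 and 2. In the cMyc pair, with 1 library each, fibroblast markers summed to 12196 in cMyc KO and 8883 in cMyc flox. Of the 7 that reached 1 in both libraries, 5 were at least 1.5-fold higher in cMyc KO and 0 lower. ESC markers summed to 60457 and 50051, with 0 of 8 past 1.5-fold. In either comparison, the part of such cells or of this expression in the ribosomal protein values was not tested.

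Related genes that the rule left out were read for comparison. Among the 6 paralogues, 4 were lower and 1 higher. Rpl39l, a copy known from testis, had 1914, 1196 and 1001 in the Dcr KO lines against 9047 and 5493 in Dcr WT (−2.42 ± 0.29, limma adjusted p = 0.000415). Rpl22l1 had 705, 661 and 773 against 1865 and 1992 (−1.44 ± 0.17, limma adjusted p = 0.000415). In both copies every Dcr KO line was far below every Dcr WT library. Rps27l (−1.24) and Rpl7l1 (−0.69) were lower, Rpl10l was higher (0.82 ± 0.20, limma adjusted p = 0.0131), and Rpl3l was not called (0.22).

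Of ribosomal proteins with other symbols, Rack1 was lower (−0.45 ± 0.15, limma adjusted p = 0.0461), and Fau (−0.95) did not pass. Among 19 translation factor and other mRNAs with a TOP tract, 3 were lower, Pabpc4 (−1.61), Eef1d (−0.51) and Hnrnpa1 (−0.48), and 1 was higher, the filament protein Vim (1.88). Their median was −0.26, and Eef1a1 (0.42, limma adjusted p = 0.136) and Eef2 (−0.25, limma adjusted p = 0.333), the main elongation factors, were not called. Of 14 ribosome assembly genes, 5 were lower, Mrto4 (−1.14), Wdr12 (−0.92), Ddx21 (−0.66), Nop16 (−0.55) and Rrs1 (−0.54), and 1 was higher, Polr1a (0.75), the largest subunit of RNA polymerase I. The median of that list was −0.17. No test compared these lists with the ribosomal proteins.

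In the cMyc comparison 78 of the 79 genes stayed within 1.5-fold. With 1 library per genotype there is no replicate check and no test, and intervals are exact 95% binomial ones for counting error only. A ratio past 1.5-fold was found in 0 of the 79 genes upwards and in 1 downwards. The shares were 10.9% and 12.1% of 25670 features and 9.02% and 5.54% of 14626 coding genes. Those features needed only a value of 1 in both libraries, whereas each of the 79 genes had at least 274 reads. Ratios from few reads vary more by counting alone. The shares are not matched by level, so they do not show that the family was unusually stable. The median log2 ratio of cMyc KO over cMyc flox was 0.04 for the 79 genes, 0.07 for all features and 0.12 for coding genes, with 44 genes above 0 and 35 below (28 and 51 when scaled to total reads). The sign of the family's median depended on the scaling. The median was −0.10 with total reads, −0.06 with total reads without ribosomal RNA and −0.07 with coding reads of other genes. Its distance from the median of all features was −0.03 in each of these. That distance could hardly change, because a scaling moves all genes of a library by 1 factor.

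Ratios ran from 0.518 to 1.48, and 62 of the 79 intervals excluded 1, 37 above it and 25 below. The intervals were narrow, with a median half-width of 0.055 in log2. The matching share over all features is not given here, so the 62 say nothing particular to the family. The balance of intervals above and below 1 turned with the scaling: with total reads 15 lay above 1 and 45 below, without ribosomal RNA 21 and 41, and with coding reads of other genes 20 and 42. Rpl34, a large subunit protein, had 821 normalised reads in cMyc KO against 1585 in cMyc flox, a ratio of 0.518 (0.476 to 0.563). It was the gene past the 1.5-fold line. In the Dcr libraries it was not called, with 2011, 1462 and 1183 in Dcr KO against 1726 and 2191 in Dcr WT (−0.36 ± 0.23, limma adjusted p = 0.267); the value was −0.53 over Dcr WT library 2 alone and −0.19 over library 1 alone.

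Also among the lowest was Rpl22, which binds RNA outside the ribosome too, at 4560 in cMyc KO against 5996 in cMyc flox (ratio 0.761, 0.732 to 0.790). Rpl36a (0.795) and Rpl21 (0.801) followed it. At the other end, Rplp2 of the P stalk had 4825 in cMyc KO against 3268 in cMyc flox (ratio 1.48, 1.41 to 1.54) and Rps28 668 against 466 (1.43, 1.27 to 1.62). Rps2 (1.32) and Rps10 (1.27) were also among the highest.

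The other P stalk genes stayed near 1, with ratios of 0.978 for Rplp0 and 0.915 for Rplp1. The median log2 ratio was 0.11 for the small subunit and −0.00 for the large one. Reads on the 79 genes made up 4.07% of coding reads in cMyc KO (95% Wilson interval 4.06 to 4.08%) and 4.30% in cMyc flox (4.29 to 4.31%), intervals that cover counting error only. Ribosomal RNA took 30.0% and 28.1% of all reads in cMyc KO and cMyc flox. Of the 45 genes that were lower in Dcr KO, 19 had a cMyc log2 ratio below 0 and 26 above 0 (median 0.07), and of the 4 higher genes 3 were above 0. Scaled to total reads, 28 of the 45 were below 0 and 17 above (median −0.071), and 2 of the 4 higher genes were above 0.

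**Figure D5:**
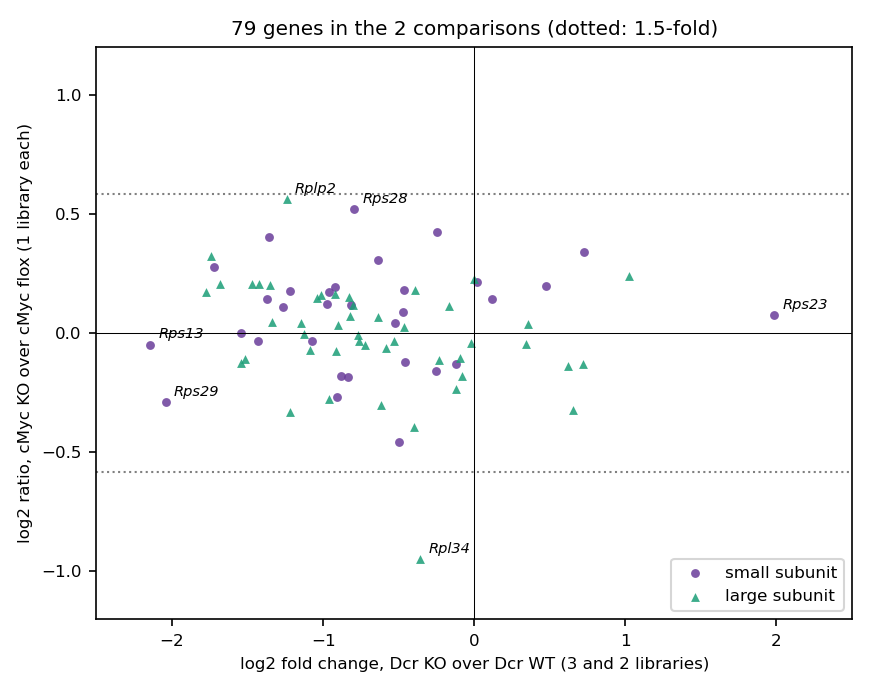
Log2 fold change of Dcr KO over Dcr WT (horizontal; 3 and 2 libraries) against the log2 ratio of cMyc KO over cMyc flox (vertical; 1 library each) for the 79 genes, by subunit; dotted lines mark 1.5-fold in the cMyc pair. The points spread widely to the left and stay within the dotted lines except for Rpl34.

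Because cMyc was lower in Dcr KO and deleted in cMyc KO, the windows were also searched on both strands for CACGTG, the E-box to which Myc binds. It was found in 11.4% of the 70 ribosomal protein windows and in 7.15% of all windows. The 8 ribosomal protein windows came from 6 genes, as the sites of Rpl19 and Rpl34 were each counted in more than 1 window. The stretches of 3 genes, with the E-box in capitals, are shown because they differ in these comparisons.
Rpl19, chr11:98026679-98026708, plus strand: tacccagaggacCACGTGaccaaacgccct
Rpl23, chr11:97782425-97782454, minus strand: acgaggtccggtCACGTGgctgagtgggcg
Rpl34, chr3:130730536-130730565, minus strand: cacctaacttctCACGTGacgttcctaccg
Rpl19 was lower in Dcr KO, with 2620, 2046 and 2437 against 3788 and 6219 in Dcr WT (−1.04 ± 0.22, limma adjusted p = 0.00695), and its cMyc ratio was 1.11. Rpl23 had 4252, 2620 and 2225 in the Dcr KO lines against 3404 and 5863 in Dcr WT, with overlap, and was not called (−0.62 ± 0.30, limma adjusted p = 0.142). It was called lower over Dcr WT library 2 alone (−1.01, limma adjusted p = 0.00721) and stood at −0.22 over library 1 alone; its cMyc ratio was 0.810. Rpl34 is described above. Of the 6 genes with an E-box, 2 were lower in Dcr KO and the median cMyc log2 ratio was −0.02; of the 54 without, 32 were lower and 2 higher, and the median was 0.04. Other motifs, searched on both strands, were CCGGAAGT, a form of the Ets motif, in 15.7% against 3.89% of all windows, AAGATGGC, a form of the YY1 motif, in 10% against 2.75%, and TATAAA in 10% against 13.6%. Of the 11 genes with CCGGAAGT, 8 were lower and 1 higher (median −1.04), and of the 49 without it 26 and 1 (median −0.72). The 7 windows with AAGATGGC came from 5 genes. A match describes the letters of a window and shows no binding.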

How the data were processed

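RNA libraries from 7 of the 11 samples were used. The 4 chromatin libraries were not analysed here. Per the submitters' processing notes, TopHat, Bowtie and DESeq were used on build mm9, with no role or version stated. The counting tool, its use of strand and how it treated multiply mapped reads were not given in the sources used here. What the authors deposited is normalised signal: each library's reads were scaled by a single factor (100% of values were whole reads within 0.01 read in all 7 columns). Columns that could not be tied to a sample numbered 0.

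RefSeq identifiers were named from a GRCm38.p6 table (19362 of 19683 coding rows matched in the Dcr table, 16246 of 16484 in the cMyc table). Dcr KO and Dcr WT were compared with limma 3.58.1 (trended empirical Bayes, in R 4.3.3) on log2(value + 1), keeping features that reached 1 in at least 2 libraries, and adjusted by Benjamini-Hochberg over all features at 0.05. This was the test planned for normalised values. The script was tested on simulated data. The cMyc pair has no replicates, and values are ratios with exact 95% binomial intervals from recovered reads. Alternatives were other pseudocounts, filters and scalings, edgeR 4.0.16 and DESeq2 1.42.0 on recovered reads, and leaving out each library. The Dcr values rest on 3 and 2 libraries.

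Genes named with values were the 8 called genes with the largest rise and fall in Dcr KO, the 4 highest and 4 lowest in Dcr WT, the 5 highest and 5 lowest cMyc ratios with a value of at least 100, and a fixed list of 16. Some single genes that this rule or a list takes are not reported here, though counts and medians include them. Others are named as members of lists, for a lost call or for disagreement between libraries. The members and lists were chosen with earlier results of these data known.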

Additional observations from a re-analysis of the deposited data

How the results depend on the processing

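Pseudocounts, filters, scalings, edgeR and DESeq2 gave 3 to 5 higher and 43 to 49 lower genes in Dcr KO and medians of −0.92 to −0.72. The median of all features was 0.08, −0.03 when scaled to coding reads of other genes and 0.15 with upper quartile scaling. The family's difference from it was −0.88 under each scaling. A scaling moves all genes of a library by 1 factor, so this difference could hardly change and is no check of the result. Leaving out 1 library gave 0 to 11 higher and 29 to 53 lower genes, and medians of −0.91 to −0.64. Higher genes by limma numbered 0 without Dcr KO line 1 (4 at an unadjusted p under 0.05), 0 without line 3 (3 unadjusted), 2 without line 4 and 11 without Dcr WT library 2. In the cMyc pair the median turned to −0.10 with total counts, −0.064 without ribosomal RNA and −0.072 with coding reads of other genes, and 2 genes were past 1.5-fold lower with total counts. No paired analysis was possible because the Dcr groups share only the number 1, a name of a line and of a library, and the cMyc groups have 1 library each.

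Values of single genes turned sign in 13 genes, all of them uncalled in the full comparison. Rps26 was −0.059 with total counts, −0.094 with coding reads of other genes, and −0.61 with edgeR and with DESeq2. Upper quartile scaling gave 0.060 for Rpl32, 0.075 for Rpl15 and 0.0018 for Rpl4, and Rpl15 was 0.0035 with TMM and 0.0083 with edgeR. With 1 library left out, Rps26 ranged from −1.55 to 1.59, Rpl32 from −0.11 to 0.085, Rpl15 from −0.17 to 0.17, Rpl4 from −0.27 to 0.11, Rpl10 from −0.33 to 0.028, Rps27 from −0.17 to 0.41 and Rps10 from −0.30 to 1.75. Likewise Rps28 ranged from −1.76 to 0.17, Rpl23a from −1.28 to 0.49, Rpl39 from −1.85 to 0.79, Rps6 from −0.50 to 0.0042, Rpl13 from −1.06 to 0.82 and Rpl13a from −0.49 to 0.024. The cause was not tested. A fit with 1 Dcr WT library assumes that it varies like the others. Another 35 values gained a call and 61 lost one with the direction kept, and 1062 kept both. The Dcr values rest on 3 and 2 libraries.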
